A study of Bos taurus with 11 samples.

Results

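Hypoxia-inducible factors (HIFs) are transcription factors made of an oxygen-regulated alpha subunit and the constant partner ARNT. The genes described here are those of the HIF subunits and of the machinery that destroys the alpha subunits when oxygen is present. They are HIF1A and EPAS1 (alpha subunits), ARNT, the prolyl hydroxylases EGLN1 and EGLN2, the asparaginyl hydroxylase HIF1AN, the substrate receptor VHL, and the ubiquitin ligase components ELOB, ELOC and RBX1. Members were all probes of the array whose gene name in the files was one of these 10 symbols or an older name, TCEB2 for ELOB and TCEB1 for ELOC. The 10 genes are among 24839 distinct gene names in the files. They have 29 of the 43653 distinct probes, 2 to 4 per gene, and each probe is reported apart.

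Total RNA of peripheral blood mononuclear cells (PBMCs, the lymphocytes and monocytes of blood) from female cattle was hybridised to 1-colour Agilent bovine arrays. The study compared 5 arrays of Ladakhi cattle, a breed living at high altitude, with 6 arrays of Sahiwal cattle, a breed of the low, arid to semi-arid plains. No treatment is given for either breed, and the labels give neither the age of the animals nor how the cells were isolated. The labels number the arrays within a breed without stating that each is a separate animal, so p-values measure the spread between these arrays. Ladakhi arrays were read on an Agilent scanner on slides of 4 and 1 arrays, and Sahiwal arrays on an Axon scanner on slides of 4 and 2. The version of the scanner software differed as well. Breed, altitude, scanner, software version and slide therefore cannot be told apart.

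In cells with enough oxygen, prolyl hydroxylases modify HIF alpha subunits, VHL binds the modified protein, and a ligase of ELOB, ELOC, a cullin and RBX1 attaches ubiquitin, which marks it for the proteasome. HIF1AN separately blocks the activating region of the alpha subunit. When oxygen falls the hydroxylases slow, the alpha subunit accumulates, pairs with ARNT and switches on genes of glycolysis, blood vessel growth and red cell formation. In lymphocytes and myeloid cells this pathway is known for its role in the choice of energy metabolism and in inflammatory responses. The arrays report transcript levels and not the protein stability on which the pathway turns.

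The probes that could be compared between the breeds are shown as stretches of 30 bases, 5′ to 3′. RBX1 A_73_P050821 and HIF1A A_73_103797, which could not be compared, are shown beside them. The hexamer AATAAA, the usual polyadenylation signal, is in capitals where present. All stretches come from the probe sequences in the deposited scanner files, whose coordinates are on build HGSC Btau_3.1. Those files do not state whether a probe lies in coding sequence or in a UTR.
EGLN2 A_73_P032656: agtcctatcagccaagaAATAAAagtttac
ELOB A_73_P033816: aactgtcccctcAATAAAagatttgggtgt
ELOB A_73_P068736: aactgtcccctcAATAAAagatttgggtgt
ELOB A_73_P477013: acgtgatgaagccacaggactcatgaagca
RBX1 A_73_P341946: gtgtgaAATAAAatccagttggattctaaa
RBX1 A_73_P050821: gtgtgaAATAAAatccagttggattctaga
HIF1A A_73_103797: tttgttacatcaAATAAAcatcttctgtgg

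ELOB probes A_73_P033816 and A_73_P068736 share an identical run of 54 bases, and the stretch shown is the same in both, so they are not independent measurements. RBX1 probes A_73_P341946 and A_73_P050821 share a run of 42 bases, and the stretches shown differ by A29G, counted from 1 at the 5′ end with the base of A_73_P341946 first. The letters AATAAA, searched on the probe strand alone and with no other motif, stood in 7 of the 29 member probes (24.1%), against 9.35% of all 43653 probes. They stood in 4 of the 5 member probes that could be measured in both breeds and in 3 of the 24 that could not. Among all probes the share was 20.8% for those measured in both breeds, against 10.1% for those detected on at least 4 Sahiwal arrays and on 0 Ladakhi arrays.

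Detection decided what could be compared. A probe counts as detected on an array where the scanner software marked it well above background. Between 4243 and 6608 spots were so marked on the Ladakhi arrays, against 17517 to 20574 on the Sahiwal arrays. Levels below are log2 of the processed signal minus the array's own reference, the 75th percentile of the 2578 probes that were detected on every array, so that 0 is the level of a bright probe on that array. On this scale the dimmest detected probe of an array lay at -3.51 on average in Ladakhi (range -4.15 to -2.94) and at -8.12 in Sahiwal (range -8.79 to -7.39). A level can therefore be followed much further down in Sahiwal than in Ladakhi.

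Of the 29 member probes, 5 were detected on at least 4 arrays of each breed and are called measured. They belong to 3 genes, EGLN2 (1 probe), ELOB (3 probes) and RBX1 (1 probe). Another 10 were detected on at least 4 Sahiwal arrays and on 0 Ladakhi arrays, 4 on 1 or 2 Ladakhi arrays and all 6 Sahiwal arrays, and 8 on 0 of the 11 arrays. The last 2, of ARNT and EGLN2, were on 0 Ladakhi arrays and on 1 and 3 Sahiwal arrays. Among all 43653 probes, 40.9% were detected on at least 4 Sahiwal arrays, which held for 19 member probes of 7 genes. Of all probes so detected, 56.3% were on 0 Ladakhi arrays and 22.6% were measured in both breeds, so the members' 10 of 19 and 5 of 19 lie near the background. Both ARNT probes, both VHL probes and both HIF1AN probes were detected on 0 Ladakhi arrays, and on at most 1 Sahiwal array.

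**Figure D1:**
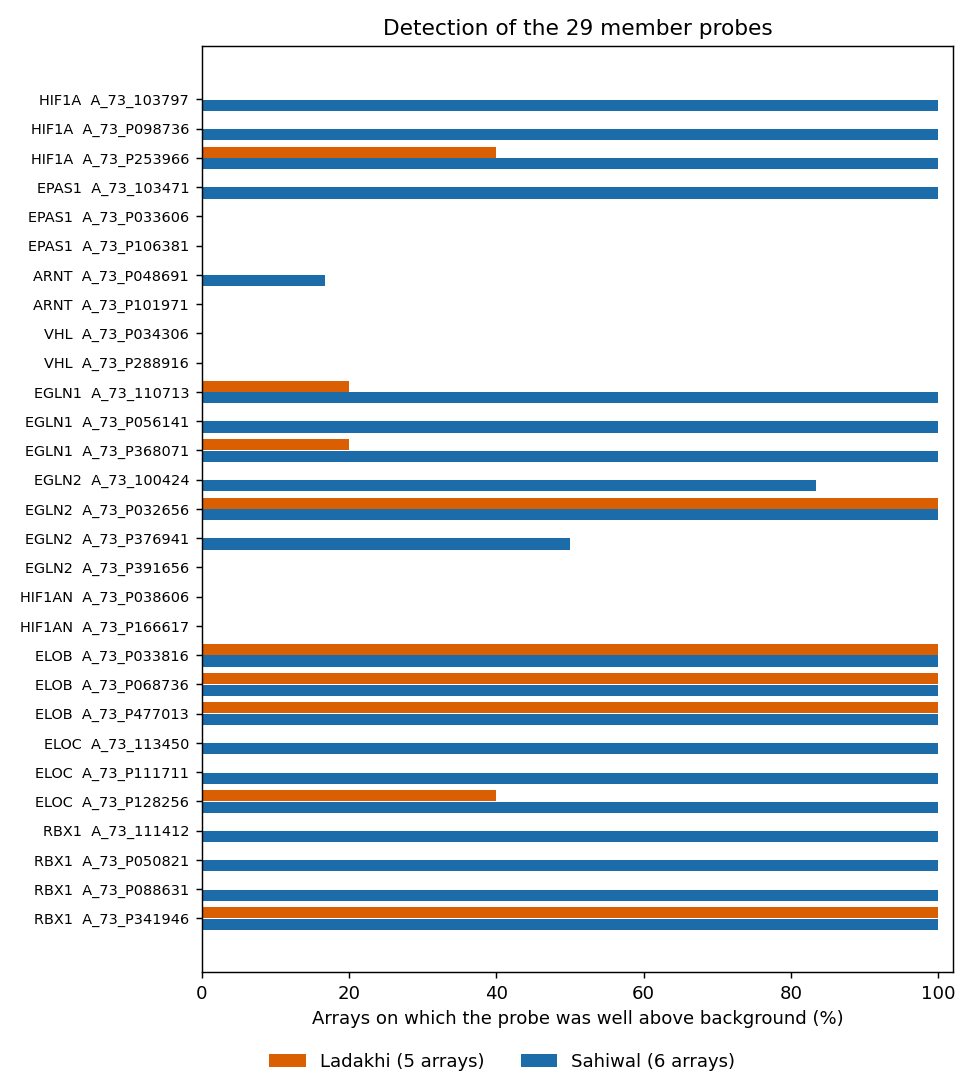
Share of the arrays of each breed on which each of the 29 member probes was well above background (bars, in percent; orange, 5 Ladakhi arrays; blue, 6 Sahiwal arrays). A row with no bar was detected on 0 of the 11 arrays; 5 probes, of EGLN2, ELOB and RBX1, reach 100% in both breeds.

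Among the measured probes, Ladakhi PBMCs had higher levels of the hydroxylase gene EGLN2 and, at all 3 probes, of the elongin B gene ELOB, while the RBX1 probe did not pass the test. Of the 5 measured member probes, 4 were higher at an adjusted p under 0.05 (limma, Benjamini-Hochberg over the 17866 probes detected on at least 4 arrays of either breed), and 0 were lower, the same counts as at an unadjusted p under 0.05. Of all 4034 measured probes, 17.9% were higher and 15.1% lower by the same rule. The median difference over the 5 probes was 1.19 (log2, Ladakhi minus Sahiwal), against -0.03 over all measured probes. The 5 probes come from 3 genes, so neither the count nor the median stands for 5 separate genes.

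The scale matters to how these differences are read. At all 5 measured probes, every Ladakhi array had a lower processed signal than every Sahiwal array before scaling. The array reference itself lay between 735 and 1695 signal units on the Ladakhi arrays, against 5898 to 14069 on the Sahiwal arrays. A higher level in Ladakhi thus means that the probe was brighter relative to the array reference, taken over the 2578 probes detected on every array. In PBMCs, more cells of a type that holds the transcript and more transcript per cell cannot be told apart.

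ELOB encodes elongin B, an adaptor subunit that joins VHL and other substrate receptors to the cullin. At probe A_73_P068736 (chromosome 25, bases 2840031 to 2840090) the levels were 2.02, 2.05, 1.03, 2.08 and 1.93 on Ladakhi arrays 1 to 5, and on the Sahiwal arrays they ran from 0.06 through a median of 0.30 to 0.86. All Ladakhi arrays lay above all Sahiwal arrays, with Ladakhi array 3 nearest to them. The means were 1.82 ± 0.45 in Ladakhi (SD, n = 5) and 0.34 ± 0.30 in Sahiwal (SD, n = 6). The difference was 1.48 ± 0.28 (SE), a 2.80-fold higher level in Ladakhi (limma, adjusted p = 0.00124). Without Ladakhi array 3 it was 1.68.

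The overlapping probe A_73_P033816 gave the same picture. Its levels were 1.38, 1.50, 1.27, 1.71 and 1.56 on Ladakhi arrays 1 to 5, against a range of 0.09 to 0.60 with a median of 0.18 on the Sahiwal arrays. The breeds did not overlap, and Ladakhi array 3 was again the lowest of its breed. The means were 1.48 ± 0.17 in Ladakhi (SD, n = 5) and 0.29 ± 0.23 in Sahiwal (SD, n = 6), a difference of 1.19 ± 0.24 (SE; limma, adjusted p = 0.00175), or 2.28-fold. The files place this probe on chromosome 18, bases 65764230 to 65764289, away from the other ELOB probes on chromosome 25. Because the shared 54-base run has these 2 places in the files, its signal cannot be assigned to either of them.

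The third ELOB probe, A_73_P477013 (chromosome 25, bases 2839961 to 2840020), shares at most 5 consecutive bases with the others and so reports the gene from another sequence. It had levels of 0.38, 0.81, 0.54, 0.83 and 0.35 on Ladakhi arrays 1 to 5, and on the Sahiwal arrays from -0.65 through a median of -0.10 to 0.12. The breeds again did not overlap, though the gap was narrower than the spread within either breed. The means were 0.58 ± 0.23 in Ladakhi (SD, n = 5) and -0.18 ± 0.32 in Sahiwal (SD, n = 6), a difference of 0.76 ± 0.26 (SE), or 1.70-fold (limma, adjusted p = 0.0277). This call was lost when any of Ladakhi arrays 2 or 4 or Sahiwal arrays 2, 4 or 6 was left out, with a difference of 0.67 to 0.75 and an adjusted p of 0.0508 to 0.0609. An exact permutation test over the 462 ways to split the arrays (two-sided) gave p = 0.00216 for each of the 3 ELOB probes, the smallest it can give here.

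EGLN2 encodes a prolyl hydroxylase (PHD1) that acts on HIF alpha subunits. Its measured probe, A_73_P032656 (chromosome 18, bases 49704533 to 49704592), had levels of -0.18, -0.15, -0.71, -0.37 and -1.01 on Ladakhi arrays 1 to 5, and of -2.42 to -1.07 with a median of -1.65 on the Sahiwal arrays. The breeds did not overlap, but Ladakhi array 5 and Sahiwal array 4 lay close to each other. The means were -0.48 ± 0.37 in Ladakhi (SD, n = 5) and -1.74 ± 0.53 in Sahiwal (SD, n = 6). The difference was 1.25 ± 0.31 (SE; 95% interval 0.59 to 1.92), a 2.39-fold higher level in Ladakhi (limma, adjusted p = 0.00591; exact permutation test, two-sided, p = 0.00433). Leaving out each array in turn gave differences of 1.12 to 1.39, all past the threshold.

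The other EGLN2 probes could not be compared. Probe A_73_100424 was detected on 0 Ladakhi and 5 Sahiwal arrays, A_73_P376941 on 0 Ladakhi and 3 Sahiwal arrays, and A_73_P391656 on 0 arrays of either breed. The higher level of EGLN2 therefore rests on 1 probe of 4.

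RBX1 encodes the RING protein that brings the ubiquitin-charged enzyme to the cullin. At probe A_73_P341946 (chromosome 5, bases 119330228 to 119330287) the levels were -0.94, -0.98, -0.72, -0.57 and -1.27 on Ladakhi arrays 1 to 5, and ran from -0.63 through a median of -0.47 to -0.25 on the Sahiwal arrays. The breeds overlapped, since Ladakhi array 4 lay above the lowest Sahiwal array. The means were -0.90 ± 0.27 in Ladakhi (SD, n = 5) and -0.45 ± 0.16 in Sahiwal (SD, n = 6). The difference of -0.45 ± 0.24 (SE; 95% interval -0.97 to 0.06) did not pass the test (limma, unadjusted p = 0.0816, adjusted p = 0.146). The exact permutation test of this probe alone, which does not use that SE, gave a two-sided p of 0.00433. The sign of the difference depends on the scaling: with cyclic loess it was 0.01, where the median of all measured probes stood at 0.42. Relative to that median the difference was -0.41, so the sign changed with the centre of the scale.

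The 3 other RBX1 probes were each detected on 6 Sahiwal and 0 Ladakhi arrays. They include A_73_P050821, which shares 42 bases with the measured probe. At A_73_111412 (chromosome 5, bases 119330793 to 119330852) the Sahiwal levels ran from -3.83 through -3.28 to -2.76. Set against the Ladakhi detection limit, the means gave a bound of 1.15-fold lower in Ladakhi than in Sahiwal. The mean levels were -5.02 in Ladakhi, not well above background, and -3.31 in Sahiwal. The fit on these levels (limma, adjusted p = 0.000671) set Sahiwal levels against Ladakhi background, so it does not back the bound. For the bound, the Ladakhi value is, on each array, the higher of the dimmest detected signal and the probe's own. At the bound itself the difference of -0.20 did not pass the test (limma, adjusted p = 0.568), so a lower level at this probe is not established. It was the only 1 of the 10 tested probes detected on 0 Ladakhi arrays for which this bound exceeded 1-fold.

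**Figure D2:**
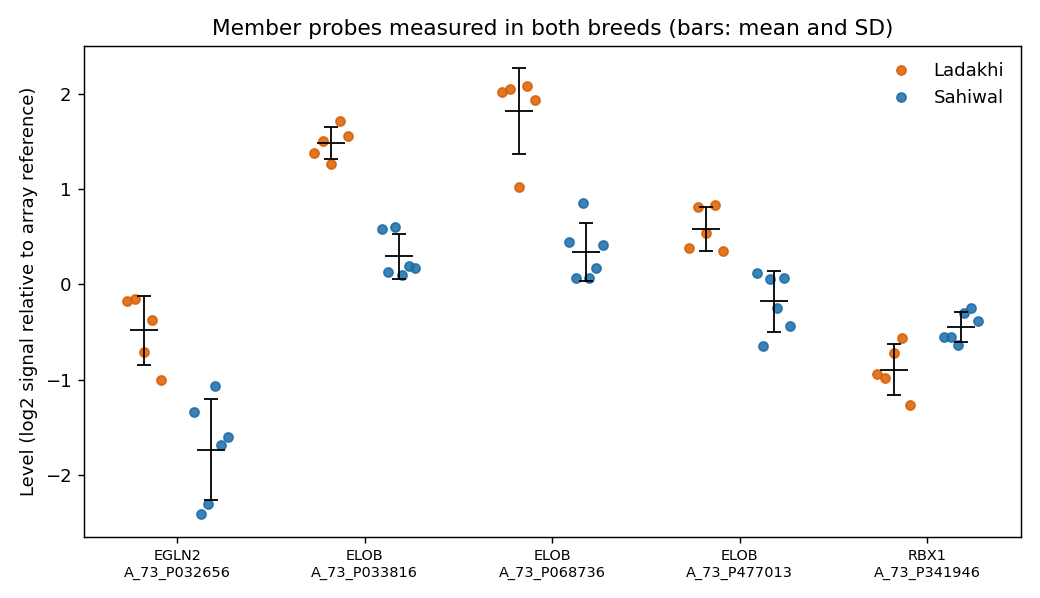
Levels (log2 signal relative to the array reference) at the 5 measured probes, 1 point per array (orange, 5 Ladakhi arrays; blue, 6 Sahiwal arrays), with the mean and SD as bars. The breeds do not overlap at EGLN2 and at the 3 ELOB probes, and they overlap at RBX1.

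The 4 measured probes without overlap compare with 21.5% of all measured probes that did not overlap between the breeds. Within a breed the members differed in how much they varied. Over the 6 Sahiwal arrays the SD was 0.16 at the RBX1 probe and 0.23 to 0.32 at the ELOB probes, while it was 0.53 at EGLN2. The median SD over all 2578 probes detected on every array was 0.37 in Sahiwal and 0.43 in Ladakhi. At EGLN2 in Sahiwal the slide means, -1.88 over 2 arrays and -1.67 over 4, lay closer together than the arrays within a slide. In Ladakhi the slide of 1 array lay below the slide of 4 at EGLN2 (-1.01 against -0.71 to -0.15). It also lay below at RBX1 (-1.27 against -0.98 to -0.57) and ELOB A_73_P477013 (0.35 against 0.38 to 0.83). At ELOB A_73_P033816 and A_73_P068736 it lay inside their range. With 1 array, slide and array cannot be told apart there.

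Levels of blood cell marker genes also differed between the breeds. Of 7 measured T cell genes 3 were higher in Ladakhi, and the level summed over the list was 5.76 to 9.43 on the Ladakhi arrays, against 2.74 to 6.58 on the Sahiwal arrays, on a linear scale of multiples of the array reference. Of 5 measured NK and cytotoxic cell genes 2 were higher, with sums of 2.84 to 4.78 in Ladakhi and 0.520 to 2.48 in Sahiwal. Of 4 measured monocyte genes 3 were lower, with sums of 2.80 to 5.02 in Ladakhi and 6.02 to 22.7 in Sahiwal. The monocyte genes CD68, ITGAM, FCGR1A, CD163 and VCAN were on 0 Ladakhi arrays, and FCGR1A also on 0 Sahiwal arrays. The part of these markers in the ELOB and EGLN2 differences was not tested. Of the other lists, B cell genes gave 1 higher of 2 measured (sums of 1.43 to 2.56 in Ladakhi and 0.940 to 2.63 in Sahiwal) and neutrophil genes 1 lower of 1 (0.185 to 0.431 in Ladakhi and 0.219 to 2.08 in Sahiwal). Platelet genes gave 0 changed of 1, also at an unadjusted p under 0.05 (1.90 to 2.57 in Ladakhi and 0.272 to 4.82 in Sahiwal), and so did red cell genes (0.393 to 0.639 in Ladakhi and 0.0885 to 1.75 in Sahiwal).

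Of the remaining components of the ligase, ELOC was detected throughout in Sahiwal and on few Ladakhi arrays, and VHL in neither breed by its named probes. ELOC encodes elongin C, which binds ELOB and the substrate receptor. All 3 of its probes were detected on all 6 Sahiwal arrays, and on 0, 0 and 2 Ladakhi arrays. Probe A_73_P128256 was the steadiest member in Sahiwal, from -4.61 through -4.45 to -4.35, with an SD of 0.09 that lay at the 0.247th percentile of the 14977 probes detected on all 6 Sahiwal arrays. Its mean was -4.39 ± 0.81 in Ladakhi (SD, n = 5; detected on 2 arrays) and -4.46 ± 0.09 in Sahiwal (SD, n = 6), with a difference of 0.07 ± 0.34 (SE; limma, adjusted p = 0.889). Since this Sahiwal mean lies below the mean Ladakhi limit, a lower level of ELOC in Ladakhi was not detectable on these arrays.

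VHL encodes the receptor that recognises hydroxylated HIF alpha. Its 2 probes, which share a run of 21 bases on chromosome 22, were not well above background on any of the 11 arrays. Among all probes 45.3% were detected on 0 arrays. These 2 probes give no level of VHL in either breed.

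EGLN1 encodes PHD2, in most cells the main prolyl hydroxylase of HIF alpha. All 3 of its probes were detected on all 6 Sahiwal arrays, and on 1, 0 and 1 Ladakhi arrays. Probe A_73_110713 had levels of -4.11, -4.08, -4.02, -3.65 and -5.15 on Ladakhi arrays 1 to 5, of which only that of array 3 was well above background, against -4.92 to -2.77 with a median of -3.52 in Sahiwal. Its difference was -0.48 ± 0.42 (SE; limma, adjusted p = 0.374). Probe A_73_P368071 differed by 0.52 ± 0.34 (SE; limma, adjusted p = 0.240), with its 1 detected Ladakhi array again array 3. Neither passed the test. The Sahiwal means of both, -3.72 and -4.86, lay below the mean Ladakhi limit of -3.51, so no direction is read from the fitted signs.

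The third EGLN1 probe, A_73_P056141, had a fitted difference of -1.34 ± 0.43 (SE; limma, adjusted p = 0.0218) between signals that were not well above background on any Ladakhi array. It was 1 of 3 probes among the 14 tested but unmeasured members that were called lower. The others were RBX1 A_73_111412 and A_73_P050821, and 0 of the 14 were called higher (limma; 4 lower and 1 higher at an unadjusted p under 0.05). Of all 13832 tested but unmeasured probes, 18.7% were called lower and 26.1% higher. With each dim Ladakhi and Sahiwal signal raised to its array's detection limit, 0 of the 3 calls remained. The mean Ladakhi limit lay above the Sahiwal means of 13 of these 14 probes, so this loss was nearly fixed in advance. Only a bound can be read from the 3 calls, and for this EGLN1 probe the bound gave no fold.

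HIF1AN encodes factor inhibiting HIF, the asparaginyl hydroxylase. Neither of its probes, on chromosome 26, was well above background on any array. Of the member hydroxylases, EGLN2 alone could thus be compared between the breeds.

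**Figure D3:**
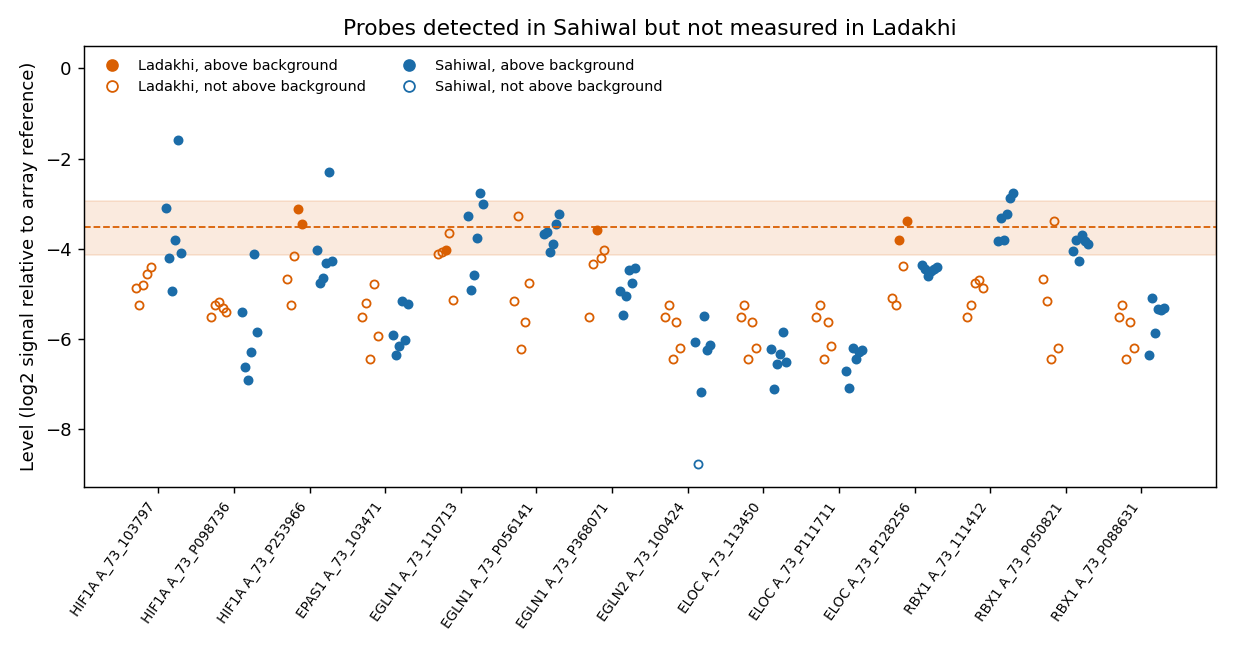
Levels (log2 signal relative to the array reference) at the 14 member probes detected on at least 4 Sahiwal arrays but on fewer than 4 Ladakhi arrays (orange, Ladakhi; blue, Sahiwal; filled, well above background; open, not). The dashed line at -3.51 and the band from -4.15 to -2.94 give the mean and range of the dimmest detected level on the 5 Ladakhi arrays, and the Sahiwal means of 13 of the 14 probes lie below the dashed line.

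HIF1A encodes the alpha subunit found in nearly all cell types. Its 3 probes lie on chromosome 10, share at most 7 consecutive bases and were all detected on the 6 Sahiwal arrays. Probe A_73_P253966 (bases 76002206 to 76002265) was the only one detected in Ladakhi, on arrays 4 and 5. Its levels were -4.68, -5.26, -4.16, -3.13 and -3.46 on Ladakhi arrays 1 to 5, against -4.76 to -2.30 with a median of -4.29 on the Sahiwal arrays. The breeds overlapped throughout. The difference was -0.09 ± 0.48 (SE; limma, adjusted p = 0.901), with a 95% interval of -1.11 to 0.94 that spans both directions.

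Probe A_73_103797 (bases 76002492 to 76002550) had Sahiwal levels of -4.94 to -1.59 with a median of -3.95, and A_73_P098736 (bases 76001322 to 76001381) of -6.91 to -4.11 with a median of -6.07. Both were on 0 Ladakhi arrays, and neither gave a bound above 1-fold. Fitted differences at these probes set Sahiwal levels against Ladakhi background, so they carry no direction. The order of the 2 breeds for HIF1A is not given by these arrays.

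What the HIF1A probes did show was a wide spread within Sahiwal. All 3 were highest on Sahiwal array 5 and second highest on Sahiwal array 1. From lowest to highest array they ranged over 3.34, 2.80 and 2.47 log2 units, or 10.1-fold, 6.97-fold and 5.52-fold. Their SDs of 1.16, 1.02 and 0.90 lay at the 96.7th, 94.5th and 91.1st percentiles of the 14977 probes detected on all 6 Sahiwal arrays, where the median SD was 0.46. Since the 3 sequences hardly overlap, they report this order from separate parts of the transcript, in the same RNA and on the same arrays. A wide spread was not particular to HIF1A. EGLN1 A_73_110713, also highest on array 5, had an SD of 0.87 (89.9th percentile), though the other EGLN1 probes had 0.30 and 0.38. EGLN2 A_73_100424 had an SD of 1.18 over the 6 arrays, which includes Sahiwal array 2 at -8.79, not well above background. Its 5 detected levels ran from -7.18 to -5.49. The percentiles were not matched for brightness.

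Sahiwal array 5 was the highest Sahiwal array for 6 of the 18 member probes detected on all 6, and each other Sahiwal array for 1 to 3. The same count was not taken over all probes, so it is not read as a trait of the members. The 6 were the 3 of HIF1A, EGLN1 A_73_110713, ELOC A_73_113450 and the measured RBX1 probe. The summed monocyte level of Sahiwal array 5, 8.73, lay inside the Sahiwal range of 6.02 to 22.7, whose highest value belonged to Sahiwal array 6. The RBX1 probe, also highest on array 5, varied by 1.30-fold over the same arrays. The cause of the HIF1A spread was not tested.

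**Figure D4:**
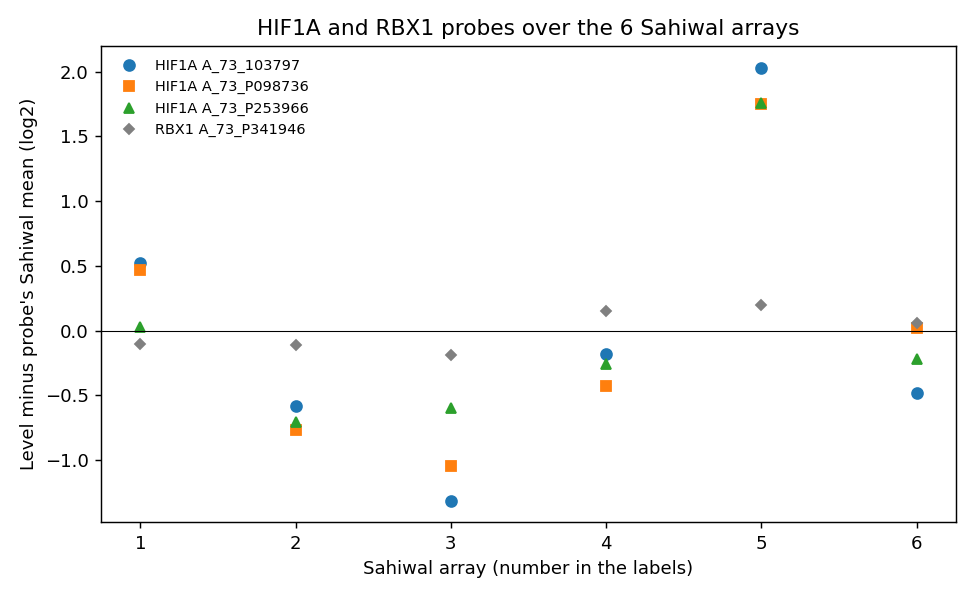
Level minus the probe's own Sahiwal mean (log2) on each of the 6 Sahiwal arrays, for the 3 HIF1A probes and the measured RBX1 probe (1 marker per array). All 3 HIF1A probes are highest on array 5 and second highest on array 1, while the RBX1 probe spans 0.38 log2 units.

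EPAS1 encodes HIF-2 alpha, an alpha subunit known from endothelial and other more specialised cells and much studied in high-altitude populations. Of its 3 probes on chromosome 11, A_73_103471 (bases 29906737 to 29906796) was detected on 6 Sahiwal and 0 Ladakhi arrays, with Sahiwal levels of -6.36 to -5.16 and a median of -5.98. The other 2 were on 0 of 11 arrays. ARNT, the constant partner, lies on chromosome 3, and its probes were on 0 Ladakhi arrays and on 1 and 0 Sahiwal arrays. Neither gene could be compared. The same lack of signal shows in the raw values, since 13 to 18 of the 29 member probes on each Ladakhi array carried the identical, lowest signal of that array's members, against 1 to 6 on each Sahiwal array.

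Other genes around the pathway were taken as lists, each gene by its brightest probe. Of 33 HIF regulators and cofactors, 10 were measured, of which 0 were higher and 1 was lower (the same at an unadjusted p under 0.05; limma), with a median difference of 0.02. The lower gene was OS9, whose product has been reported to promote HIF1A hydroxylation in human cells (-1.60 ± 0.47 SE; limma, adjusted p = 0.0147). That call was lost with quantile normalization (adjusted p = 0.0510) and with cyclic loess (adjusted p = 0.110). EGLN3 was on 0 of 11 arrays, and CUL2, the cullin of the VHL ligase, on 6 Sahiwal and 0 Ladakhi arrays.

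Of 39 partners of ELOB, ELOC and RBX1 in cullin ligases, 17 were measured, of which 2 were higher and 0 lower (3 and 1 at an unadjusted p under 0.05; limma), with a median difference of -0.28. The higher genes were ZYG11B, a substrate receptor of a CUL2 ligase (1.39 ± 0.38 SE; limma, adjusted p = 0.00985), and NEDD8, the modifier that activates cullins (0.78 ± 0.26 SE; limma, adjusted p = 0.0268). NEDD8 missed the threshold with the array numbers as a block (adjusted p = 0.108). The shares of all measured probes called higher and lower, 17.9% and 15.1%, are the background to these counts and to those of the other lists.

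Of 41 HIF target genes, 7 were measured, of which 1 was higher and 2 were lower, with a median difference of -0.18. LDHA, which makes lactate from pyruvate, was higher by 1.40 ± 0.33 (SE; limma, adjusted p = 0.00473). PFKFB3, an activator of glycolysis, was lower, with a difference of -2.77 ± 0.62 (SE; limma, adjusted p = 0.00345). MXI1, a repressor that opposes MYC, was also lower, with -1.19 ± 0.39 (SE; limma, adjusted p = 0.0259). The MXI1 call was lost with quantile normalization, cyclic loess and normexp background correction (adjusted p = 0.0985, 0.196 and 0.205). The named targets thus lay on both sides.

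The genes most like each measured member were taken by Pearson correlation of levels over the 11 arrays, after each breed's mean was removed, among 2386 probes. For EGLN2 these were FAM65A (r = 0.91), ARL6IP1 (0.89) and KLHL22 (0.89). For ELOB they were CDC25B, AAMDC and ROM1 at A_73_P068736 (0.94, 0.91 and 0.91), ATP5ME, CD4 and PDCD1 at A_73_P033816 (0.91, 0.86 and 0.86), and UQCC3, RETREG1 and RABAC1 at A_73_P477013 (0.88, 0.87 and 0.85). For RBX1 they were RNF31, FUOM and STARD7 (0.89, 0.88 and 0.86). The ELOB probes correlated with each other at 0.74 for the overlapping pair and at 0.63 and 0.34 with A_73_P477013, and no gene was among the top 3 of more than 1 probe. EGLN2 followed ELOB by -0.11 to 0.35. All points share the array and its scaling, and these values are descriptions over 11 arrays.

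**Figure D5:**
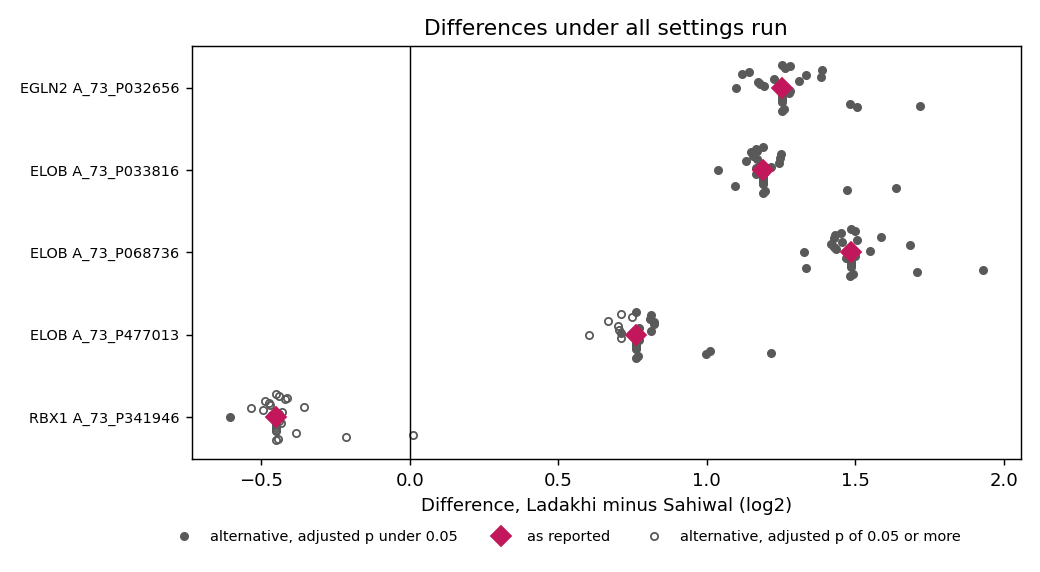
Difference (log2, Ladakhi minus Sahiwal) at each measured probe as reported (diamond) and under the 27 other settings (circles; filled where the adjusted p was under 0.05). EGLN2 and ELOB probes A_73_P033816 and A_73_P068736 are filled throughout, ELOB A_73_P477013 has 7 open circles, and RBX1 lies near or below 0 with 1 filled circle.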

How the data were processed

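The deposited intensity values are, per the file headers, processed signals of Feature Extraction, from version 12.0.1.1 on an Agilent scanner for the 5 Ladakhi arrays and version 9.5.3.1 on an Axon scanner for the 6 Sahiwal arrays. Per the labels' protocols, Trizol RNA was amplified and labelled with Cy3. A deposited table also gives log2 values, with the scaling between arrays unstated. Its column medians were 1.60 to 2.32 in Ladakhi and -0.73 to 0.00 in Sahiwal. Each column matched another array of the same breed best (r of 0.966 to 0.991, against 0.00919 to 0.661 with its own), so the array numbering is unsettled, and that table served as an alternative.

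Control spots were dropped, the 294 spots marked as outliers were treated as missing, and repeated spots of a probe were averaged. Log2 of the signal was taken minus the 75th percentile of the 2578 probes that were detected on every array, since a minority of all probes was detected. Probes detected on at least 4 arrays of either breed (17866) were tested with limma 3.58.1 (lmFit, eBayes, Benjamini-Hochberg) in R 4.3.3. The test was checked on simulated data. No member probe was saturated. Precision is limited by the few arrays and by dim Ladakhi signals.

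The members and lists were chosen with earlier results of these data known. Named genes were all member probes, up to 3 changed genes in each direction per pathway list, and the 3 most similar genes per measured probe. Gene symbols were updated through 26740 accessions found in the RefSeq table of ARS-UCD2.0, and its coordinates were not used. A genome sequence and protein sequences were not used here. Alternatives covered scaling, background, filter, floor, outlier and saturated spots, slide and number blocks, array weights, the value table and each array left out.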

Additional observations from a re-analysis of the deposited data

Results flagged for a closer look

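The values of 2 arrays stood apart from the rest of their breed by Dixon's test, out of 23 groups of arrays tested, where chance gives about 1 in 20. On Sahiwal array 5 the HIF1A probe A_73_P253966 had a level of -2.30, against -4.03 on the nearest array, a gap of 0.702 of the whole range (critical value 0.625). The other 2 HIF1A probes were also highest there. On Ladakhi array 3 the ELOB probe A_73_P068736 had a level of 1.03, against 1.93 on the nearest array, a gap of 0.858 of the range (critical value 0.71). Without that array the ELOB difference was 1.68 in place of 1.48. The cause of either value was not tested.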

How the results depend on the processing

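EGLN2 A_73_P032656 and ELOB probes A_73_P033816 and A_73_P068736 kept their direction and an adjusted p under 0.05 in all 27 other settings. Settings that changed only the filter, the floor, the outlier or saturated spots, or the probes adjusted over left their differences unchanged. Those settings could alter only the error and the adjusted p. Leaving out each array in turn gave 1.12 to 1.39, 1.13 to 1.25 and 1.42 to 1.68 for these 3 probes. The other 16 settings gave 1.097 to 1.72, 1.04 to 1.64 and 1.33 to 1.93, or 1.09 to 1.33, 0.85 to 1.30 and 1.09 to 1.60 relative to the median of all measured probes. ELOB A_73_P477013 fell below the threshold with the array numbers as a replicate block (0.71, adjusted p = 0.120), with the deposited value table centred on the detected probes, an alternative chosen after seeing the data (0.60, adjusted p = 0.0526), and in 5 of the 11 settings that leave out an array (0.67 to 0.82 over all 11). RBX1 A_73_P341946 changed sign with cyclic loess (0.0096, adjusted p = 0.981), which moved the median of all measured probes to 0.42, and passed the threshold in the centred value table (-0.61, adjusted p = 0.0452), which made 1 member probe lower in place of 0. It ran from -0.53 to -0.36 without single arrays. Relative to the median of all measured probes it stayed negative in the other 16 settings, at -0.63 to -0.39. The number of higher probes was 3 or 4 without single arrays. Quantile normalization and normexp moved the median of all measured probes to 0.17 and 0.25. The cause of these changes was not tested. Array numbers do not pair the arrays: the correlation of their deviations was -0.07 to 0.05, and the block changed no call at the other 4 measured probes. The bound at RBX1 A_73_111412 stayed above 0, at 0.04 to 0.34 (log2), without single arrays, while that at HIF1A A_73_103797 ran from -0.52 to 0.15. Of the 29 probes, 24 could not be compared. Of these, 14 were detected on at least 4 Sahiwal arrays and fell short in Ladakhi alone, while the rest fell short in both breeds.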

Other observations

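Another pair of probes named by transcript number only is described in the files as related to members and lay outside the rule. TC456444, described as the mouse gene for elongin B, was detected on 4 Ladakhi and 6 Sahiwal arrays and averaged -1.90 ± 1.86 in Ladakhi (SD, n = 5) and -2.60 ± 0.14 in Sahiwal (SD, n = 6). Its difference was 0.71 (limma, adjusted p = 0.388). TC435155, described as partial VHL, was detected on 0 Ladakhi and 2 Sahiwal arrays.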
